A study of Mus musculus with 18 samples.

Results

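Interferon-stimulated genes, 37 of the 19094 protein-coding genes in the deposited count table, were followed in mouse heart cells. They were taken by symbol from a fixed list of interferon-induced antiviral, sensor and signalling genes, with chemokines left out, and all 37 were in the table. Cells came from mice with a Bag3-P209L transgene (Tg+) and from Bag3-WT mice, all 16 months old, with 3 mice of each genotype. Each heart gave cardiomyocytes, sequenced in 2 libraries per mouse whose counts were summed, and cardiac fibroblasts, sequenced in 1 library per mouse. The 18 libraries thus made 12 columns, in 4 groups of 3 mice: Tg+ cardiomyocytes, Bag3-WT cardiomyocytes, Tg+ fibroblasts and Bag3-WT fibroblasts. BAG3 is a co-chaperone that helps clear damaged sarcomere proteins, and P209L exchanges a proline of it for a leucine. The sources used here do not give the promoter or species of the transgene, the mouse strain, or whether transgene reads count towards Bag3.

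Type I interferons (interferon beta and the interferon alphas) are secreted after a cell senses foreign or misplaced nucleic acid. They bind the IFNAR1 and IFNAR2 receptor chains, whose Janus kinases phosphorylate STAT proteins, STAT2 among them. With IRF9 these form a transcription factor complex that binds the interferon-stimulated response element (ISRE) in promoters. Interferon gamma acts on promoters mainly through another element, the gamma-activated site (GAS). The genes switched on encode further sensors, nucleases, translation inhibitors and membrane blocks to virus entry, and in the heart they have been studied mostly in viral myocarditis and after infarction, where macrophages and fibroblasts are known sources of the signal.

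The element itself was looked for in RefSeq promoter windows of build GRCm38.p6, which run from 250 bases before to 50 bases after a start site. A window was found for 26 of the 37 genes. The ISRE core (GAAA, any 2 bases, then GAAA, on either strand) was in the windows of 12 of the 26 (46.2%), against 3.99% of the 27025 genes with a window. The GAS core TTCNNNGAA, which reads the same on both strands in its fixed letters, was in 7 of the 26 (26.9%), against 9.55%. The last 150 bases before the start are printed for 5 genes, chosen after their values were seen: 4 with the core that differed widely in their cell type difference, and Oasl1, which had the largest difference and no core in its window. Capitals mark the ISRE core on either strand.
Isg15 (chr4:156200819-156200968, minus strand): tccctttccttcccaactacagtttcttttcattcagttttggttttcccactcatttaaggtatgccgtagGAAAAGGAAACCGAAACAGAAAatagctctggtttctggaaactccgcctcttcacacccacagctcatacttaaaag
Rsad2 (chr12:26456453-26456602, minus strand): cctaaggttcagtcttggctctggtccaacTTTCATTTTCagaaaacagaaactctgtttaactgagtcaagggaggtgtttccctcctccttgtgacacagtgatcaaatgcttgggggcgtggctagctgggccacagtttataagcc
Ifit1 (chr19:34640739-34640888, plus strand): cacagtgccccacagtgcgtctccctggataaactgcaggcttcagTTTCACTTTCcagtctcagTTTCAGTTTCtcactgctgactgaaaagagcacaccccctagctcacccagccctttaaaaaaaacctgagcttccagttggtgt
Bst2 (chr8:71537473-71537622, minus strand): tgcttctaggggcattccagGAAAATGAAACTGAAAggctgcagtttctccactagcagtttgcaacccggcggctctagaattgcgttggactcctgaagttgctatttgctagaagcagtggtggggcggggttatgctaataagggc
Oasl1 (chr5:114923090-114923239, plus strand): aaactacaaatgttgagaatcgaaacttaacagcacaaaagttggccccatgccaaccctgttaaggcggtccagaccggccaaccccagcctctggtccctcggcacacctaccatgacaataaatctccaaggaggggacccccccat
In Isg15 the matches began 78, 72 and 66 bases before the start and overlapped each other. They began 104 and 85 bases before it in Ifit1, 120 bases in Rsad2, and 130 and 124 bases in Bst2. The first Bst2 match also overlapped a GAS core that began 136 bases before the start. A match is a run of letters and not a measured binding site.

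The nuclear depth of a column was 2.26 to 7.79 M counts (M, 1e6) in cardiomyocytes and 11.3 to 15.8 M in fibroblasts. Before any further scaling, 3 counts came to between 0.190 and 1.33 per 1e6 nuclear counts. CPM here means counts per 1e6 nuclear counts, scaled by trimmed mean of M-values (TMM) over all 12 columns, with the 13 mitochondrial genes left out. Mitochondrial genes took 51.7 to 85.5% of the counts in cardiomyocytes and 16.7 to 74.2% in fibroblasts. Bag3, the gene of the transgene, had 403 to 1568 counts in the cardiomyocyte columns and 2566 to 7000 in the fibroblast columns. These are raw counts, not scaled for the unequal depth, and so do not compare the cell types or genotypes. The cardiomyocyte markers were higher in cardiomyocyte than in fibroblast columns for 10 of 10 genes (edgeR adjusted p under 0.05), against 19.3% of all genes. The summed level of these 10 was 2784 to 7064 CPM in cardiomyocyte columns and 1136 to 2815 CPM in fibroblast columns. The ranges overlapped, with WT mouse 1 fibroblasts at 2815 CPM above Tg mouse 1 cardiomyocytes at 2784 CPM. Fibroblast markers separated the cell types poorly: of 10, 1 was lower (Tcf21) and 2 were higher (Col1a1 and Col1a2) in cardiomyocytes. Their summed level was 9291 to 23860 CPM in cardiomyocyte columns and 5009 to 18700 CPM in fibroblast columns. In every cardiomyocyte column it exceeded the summed level of the cardiomyocyte markers. Tg mouse 3 stood apart. Its animal code holds the letter F, yet its cardiomyocytes held 62 counts of Ddx3y and 172 of Eif2s3y, both on the Y chromosome, against 0 and at most 24 in the cardiomyocytes of the other mice with that letter, while its fibroblasts held 0 of each. Whether both columns came from 1 animal, and whether libraries were swapped or mixed, was not tested. Tg mouse 3 also had the lowest level of all 14 macrophage and myeloid markers among the 6 mice, in both cell types. In both it had the lowest summed erythroid level (70.8 CPM in cardiomyocytes, 163.5 CPM in fibroblasts). Its summed smooth muscle and pericyte level was the highest in both (4523 and 1803 CPM).

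Interferon-stimulated genes were far lower in cardiomyocytes than in fibroblasts labelled as from the same hearts. Within mice, 34 of the 37 were lower, 1 was higher (Mx2) and 2 were not called (Ifi27l2a and Ifi44), by edgeR's quasi-likelihood test with the mouse as block (adjusted p under 0.05, Benjamini-Hochberg over 14223 genes). Of all genes tested, 43.7% were called, 24.4% as lower and 19.3% as higher. The median log2 fold change of the 37 genes was −2.09, against −0.03 over all genes. Without Tg mouse 3 the counts were the same, 34 lower and 1 higher, with a median of −1.84. One of the 34, Mx1, passed the count filter only through its fibroblast counts, and Mx2 only through its cardiomyocyte counts. Each of the 34 was lower in cardiomyocytes in 6 of 6 mice, the same mice on which the calls rest. For 30 of the 37 (81.1%) every cardiomyocyte column lay below every fibroblast column, against 15.2% of all genes, and for none did every cardiomyocyte column lie above, against 9.46%. The size varied widely: 12 genes were lower by at least 3 log2 units, 19 by between 1 and 3 and 3 by less than 1. Together the 37 genes held 0.0999 to 0.334% of the nuclear counts of a cardiomyocyte column and 0.772 to 1.15% of those of a fibroblast column. In such bulk libraries, fewer cells of a type and less RNA per cell cannot be told apart.

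**Figure D1:**
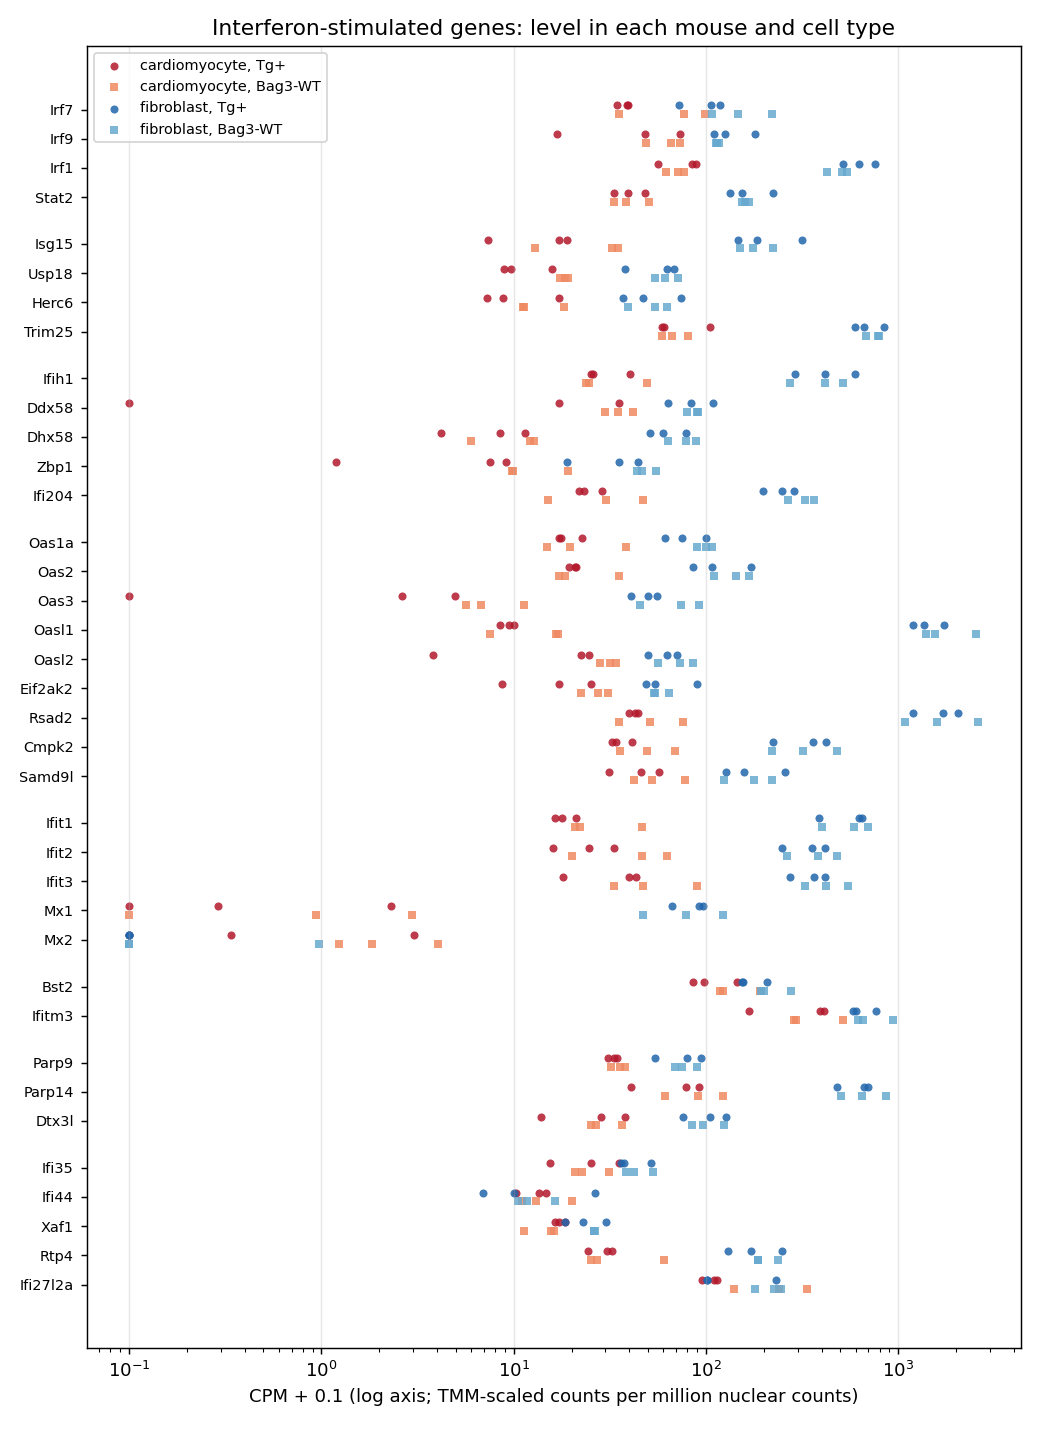
Level of each interferon-stimulated gene in each mouse, as CPM + 0.1 on a log axis, grouped by role from top to bottom. Each point is 1 mouse, circles are Tg+ and squares Bag3-WT, red shades cardiomyocytes and blue shades fibroblasts. For Oasl1 and Rsad2 the cell types lie far apart, with highest cardiomyocyte values of 16.8 and 75.7 CPM and lowest fibroblast values of 1194 and 1085 CPM, while for Ifi44 and Ifi27l2a they overlap.

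The 4 regulators were all lower in cardiomyocytes, with a median log2 fold change of −1.66. Irf1 had 88.5, 84.7 and 55.9 CPM in Tg+ and 61.7, 76.9 and 71.1 CPM in Bag3-WT cardiomyocytes, against 752, 516 and 622 CPM in Tg+ and 539.6, 509 and 427 CPM in Bag3-WT fibroblasts. Irf1, a factor that interferons induce and that in turn activates interferon-responsive promoters, was thus lower in every cardiomyocyte column than in any fibroblast column (log2 fold change −2.93, standard error (SE) 0.21, edgeR adjusted p = 1.91e-06). Stat2 had 48.2, 39.4 and 33.3 CPM in Tg+ and 33.2, 50.6 and 38.3 CPM in Bag3-WT cardiomyocytes, against 133, 154 and 223 CPM in Tg+ and 159.7, 154 and 168 CPM in Bag3-WT fibroblasts. Stat2, which encodes a subunit of the complex formed in type I signalling, also showed no overlap (log2 fold change −2.02, SE 0.21, edgeR adjusted p = 2.35e-05). Irf7, the factor that amplifies interferon alpha production, and Irf9, the DNA-binding subunit of the STAT complex, had smaller differences of −1.30 (SE 0.18) and −1.28 (SE 0.32), both called.

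The ISG15 system attaches a ubiquitin-like protein to other proteins, and all 4 of its genes were lower in cardiomyocytes. Isg15 had 17.1, 18.9 and 7.26 CPM in Tg+ and 12.9, 34.95 and 32.3 CPM in Bag3-WT cardiomyocytes, against 146, 184 and 316 CPM in Tg+ and 224, 176 and 151 CPM in Bag3-WT fibroblasts. The modifier gene Isg15 was lower by 3.33 log2 units in the fit (log2 fold change −3.33, SE 0.39, edgeR adjusted p = 6.51e-05), and among cardiomyocytes it was lowest in Tg mouse 3. Trim25 had 105, 60.6 and 58.8 CPM in Tg+ and 59, 80.5 and 66.2 CPM in Bag3-WT cardiomyocytes, against 592, 843 and 667 CPM in Tg+ and 783, 679 and 798 CPM in Bag3-WT fibroblasts. Trim25, a ubiquitin ligase that helps activate the RNA sensor RIG-I, had a log2 fold change of −3.37 (SE 0.24, edgeR adjusted p = 1.91e-06), and its cell types did not overlap. Usp18, which removes ISG15 and restrains the receptor, and Herc6, the main ISG15 ligase of mice, were lower by smaller steps of −2.01 (SE 0.25) and −2.09 (SE 0.30).

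All 5 sensor genes were lower in cardiomyocytes, with a median of −2.97. Ifih1 had 40.2, 25.7 and 25.1 CPM in Tg+ and 24.6, 49.2 and 23.8 CPM in Bag3-WT cardiomyocytes, against 291, 416 and 594 CPM in Tg+ and 516, 272 and 414 CPM in Bag3-WT fibroblasts. This gene encodes MDA5, which senses long duplex RNA, and its cell types were apart (log2 fold change −3.73, SE 0.32, edgeR adjusted p = 6.97e-06). Ifi204 had 23.2, 28.6 and 21.8 CPM in Tg+ and 14.99, 46.7 and 30.1 CPM in Bag3-WT cardiomyocytes, against 198, 287 and 249.6 CPM in Tg+ and 365, 266 and 329 CPM in Bag3-WT fibroblasts. Ifi204 belongs to the DNA-binding family of interferon-inducible proteins and had a log2 fold change of −3.40 (SE 0.27, edgeR adjusted p = 3.85e-06). Reads of its near copies Ifi205 and Mndal may be split with it by the counting, so the value of Ifi204 alone is uncertain. Dhx58, which encodes the RIG-I relative LGP2, was at −2.97 (SE 0.26), Zbp1, a sensor of Z-form nucleic acid, at −2.19 (SE 0.40) and Ddx58, the gene of RIG-I itself, at −1.90 (SE 0.64). Ddx58 had 0 CPM in the cardiomyocytes of Tg mouse 3, against 17.2 to 41.4 CPM in those of the other 5 mice.

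The effectors that act on nucleotides, RNA and translation were lower in cardiomyocytes for 9 of 9, with a median of −2.56 and a range of −7.16 to −1.49. Oasl1 had 8.35, 9.96 and 9.32 CPM in Tg+ and 7.44, 16.8 and 16.6 CPM in Bag3-WT cardiomyocytes, against 1359, 1731 and 1194 CPM in Tg+ and 2550, 1394 and 1546 CPM in Bag3-WT fibroblasts. Oasl1, a synthetase-like protein without enzyme activity that in mice is known to restrain Irf7 translation, thus stayed at or below 16.8 CPM in cardiomyocytes and at or above 1194 CPM in fibroblasts. Its log2 fold change was −7.16 (SE 0.34, edgeR adjusted p = 2.90e-07), or 143-fold lower. In GRCm38, GENCODE M21 places Oasl1 on chromosome 5 (114923240 to 114937915, plus strand) and Rsad2 on chromosome 12 (26442746 to 26456452, minus strand). Rsad2 had 39.8, 44.3 and 42.5 CPM in Tg+ and 35.2, 75.7 and 51.2 CPM in Bag3-WT cardiomyocytes, against 1199, 1704 and 2049 CPM in Tg+ and 2599, 1085 and 1582 CPM in Bag3-WT fibroblasts. Rsad2 encodes viperin, which makes a chain-terminating nucleotide, and it was 34.9-fold lower (log2 fold change −5.13, SE 0.33, edgeR adjusted p = 1.23e-06). The oligoadenylate synthetases, which make the signal that activates RNase L, followed with Oas3 at −3.68 (SE 0.48), Oas2 at −2.56 (SE 0.25) and Oas1a at −2.07 (SE 0.24). Cmpk2, a mitochondrial nucleotide kinase, was at −2.95 (SE 0.28), Samd9l, an inhibitor of translation, at −1.79 (SE 0.29), Oasl2 at −1.59 (SE 0.35) and Eif2ak2, the gene of the kinase PKR that halts translation on duplex RNA, at −1.49 (SE 0.30).

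The IFIT proteins bind the ends of foreign RNA, and all 3 of their genes were lower in cardiomyocytes. Ifit1 had 21.1, 17.7 and 16.3 CPM in Tg+ and 20.7, 46.5 and 22.05 CPM in Bag3-WT cardiomyocytes, against 389, 626 and 648 CPM in Tg+ and 697, 401 and 586 CPM in Bag3-WT fibroblasts. For Ifit1, the fit gave 24.1-fold lower (log2 fold change −4.59, SE 0.32, edgeR adjusted p = 1.96e-06). Ifit3 had 43.4, 39.9 and 17.9 CPM in Tg+ and 33.03, 89.4 and 46.97 CPM in Bag3-WT cardiomyocytes, against 272, 414 and 366 CPM in Tg+ and 548, 328 and 419.9 CPM in Bag3-WT fibroblasts. For Ifit3 it gave 9.38-fold lower (log2 fold change −3.23, SE 0.32, edgeR adjusted p = 2.10e-05), and Ifit2 was at −3.50 (SE 0.36). Ifit1 and Ifit3 have near copies, Ifit1bl1 and Ifit3b, with which they may share reads. The Mx genes encode dynamin-like GTPases that trap viral particles. Mx1 had 33 summed counts in the 6 cardiomyocyte columns and 6065 in the 6 fibroblast columns, and was at 0 in cardiomyocytes of Tg mouse 3 and WT mouse 3. Per nuclear count, the fibroblast over cardiomyocyte ratio was 49.5, with a 95% interval of 35.2 to 72.0 that covers counting error only. The fitted log2 fold change of −6.28 lies beyond that interval and, with so few cardiomyocyte counts, gives no exact fold.

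Mx2 was the only gene of the 37 called higher in cardiomyocytes, and the call rests on few counts. Mx2 passed the count filter only through its cardiomyocyte counts, so the filter favoured this direction. It had 2, 15 and 0 counts in Tg+ cardiomyocytes and 4, 13 and 4 in Bag3-WT cardiomyocytes, against 0 in each of the 3 Tg+ fibroblast columns and 11, 0 and 0 in Bag3-WT fibroblasts. The log2 fold change was 4.34 (SE 1.27, edgeR adjusted p = 0.0187). Without Tg mouse 2, WT mouse 2 or WT mouse 3 the adjusted p was 0.0751, 0.0727 and 0.0548, so that the call was lost each time. The GENCODE M21 annotation lists Mx2 as a polymorphic pseudogene, and reads could be split between Mx1 and Mx2.

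The 2 membrane proteins that block virus entry or release had smaller differences. Ifitm3 had 390.2, 412 and 167 CPM in Tg+ and 286, 518 and 293 CPM in Bag3-WT cardiomyocytes, against 582, 605 and 761 CPM in Tg+ and 617, 936 and 652 CPM in Bag3-WT fibroblasts. Ifitm3, which blocks fusion of entering virus, was lower by 1.06 log2 units (log2 fold change −1.06, SE 0.24, edgeR adjusted p = 0.00448) with no overlap. Bst2 had 146, 97.3 and 85.3 CPM in Tg+ and 123, 192 and 118 CPM in Bag3-WT cardiomyocytes, against 156, 154 and 208 CPM in Tg+ and 199, 278 and 193 CPM in Bag3-WT fibroblasts. Bst2, or tetherin, which holds budding virus at the cell surface, was at −0.66 (SE 0.19, edgeR adjusted p = 0.0155), and its cell types overlapped. Both calls hung on the scaling: with library size alone and no TMM factors, the median of all genes moved to 0.39, and the adjusted p was 0.0806 for Ifitm3 and 0.379 for Bst2.

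The ADP-ribosylation genes encode PARP9, its partner DTX3L and PARP14, and all 3 were lower. Parp14 had 91.8, 78.8 and 40.6 CPM in Tg+ and 61.3, 122 and 90.6 CPM in Bag3-WT cardiomyocytes, against 477, 662 and 697 CPM in Tg+ and 858, 504 and 650.3 CPM in Bag3-WT fibroblasts. Parp14 was 8.16-fold lower (log2 fold change −3.03, SE 0.30, edgeR adjusted p = 1.83e-05). Dtx3l had 37.9, 28.5 and 13.8 CPM in Tg+ and 26.6, 36.5 and 25.3 CPM in Bag3-WT cardiomyocytes, against 75.8, 105 and 128 CPM in Tg+ and 124, 84.2 and 96.95 CPM in Bag3-WT fibroblasts. The ubiquitin ligase gene Dtx3l was at −1.88 (SE 0.27, edgeR adjusted p = 2.80e-04) and Parp9 at −1.16 (SE 0.18), with no overlap for either. Parp9 and Dtx3l lie on opposite strands of chromosome 16 and overlap by 682 bases in GENCODE M21, and since it is not stated whether counting used the strand, their values may not be separate.

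Of the 5 remaining genes 3 were lower. Rtp4 had 30.5, 32.4 and 24.3 CPM in Tg+ and 26.96, 60.5 and 25.3 CPM in Bag3-WT cardiomyocytes, against 129.9, 171 and 247 CPM in Tg+ and 236, 187 and 187 CPM in Bag3-WT fibroblasts. Rtp4, a receptor chaperone induced by interferon, was at −2.57 (SE 0.25, edgeR adjusted p = 1.79e-05). Ifi35 had 35.2, 25 and 15.3 CPM in Tg+ and 22.7, 31.3 and 20.7 CPM in Bag3-WT cardiomyocytes, against 35.9, 37.3 and 51.9 CPM in Tg+ and 38.2, 52.7 and 42.1 CPM in Bag3-WT fibroblasts. Ifi35 was at −0.80 (SE 0.23, edgeR adjusted p = 0.0153) with a narrow gap between the cell types, and it lost the call without TMM factors (adjusted p = 0.267). Xaf1, an interferon-induced promoter of apoptosis, was at −0.65 (SE 0.22). Ifi44 had 13.5, 14.6 and 10.2 CPM in Tg+ and 10.9, 20.1 and 12.9 CPM in Bag3-WT cardiomyocytes, against 9.91, 6.79 and 26.5 CPM in Tg+ and 10.4, 16.3 and 11.6 CPM in Bag3-WT fibroblasts. Ifi44 did not pass (log2 fold change 0.14, SE 0.31, edgeR adjusted p = 0.745), and Ifi27l2a did not pass either (log2 fold change −0.13, SE 0.25, edgeR adjusted p = 0.711). Ifi44 was lower in cardiomyocytes in 1 of 6 mice and Ifi27l2a in 2 of 6.

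**Figure D2:**
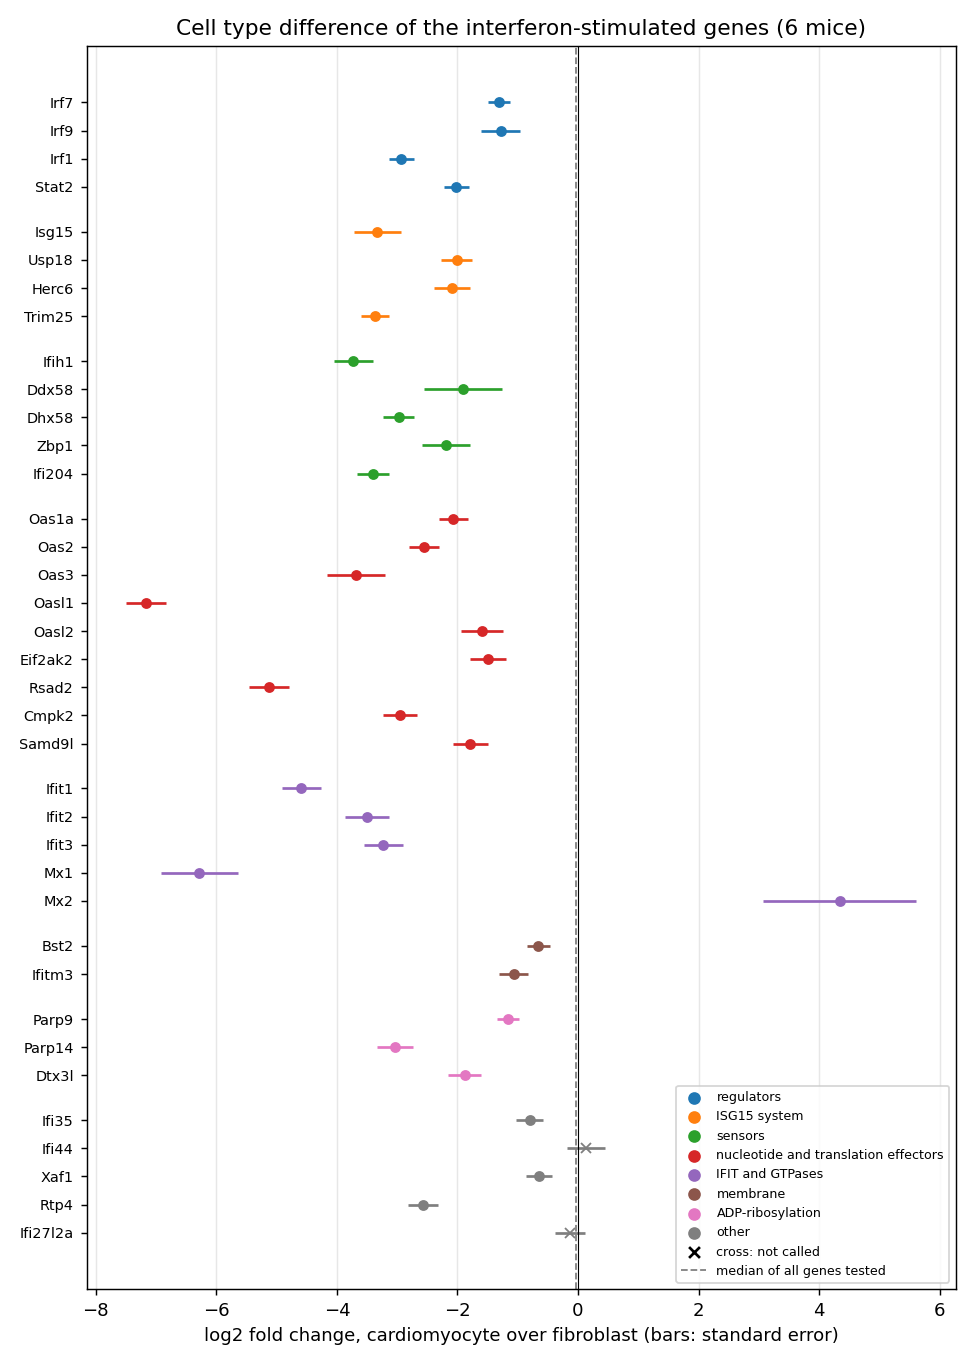
Cell type difference of the interferon-stimulated genes, as the log2 fold change of cardiomyocyte over fibroblast from the fit within 6 mice, with bars for the standard error and colours for the role. Oasl1 at −7.16 and Mx1 at −6.28, the latter fitted on few cardiomyocyte counts, lie farthest to the left. Mx2 at 4.34, also fitted on few counts, lies alone to the right. The crosses are Ifi44 and Ifi27l2a, which were not called. The dashed line is the median of all genes, −0.03.

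Genes with and without the promoter cores covered overlapping ranges of this difference. All 12 genes with the ISRE core in the window were lower in cardiomyocytes, with a median of −2.65 and a range of −5.13 to −0.66. Of the 14 with no match 13 were lower, with a median of −1.84 and a range of −7.16 to 0.14. The 7 genes with TTCNNNGAA had a median of −1.49 and the 19 without it −2.09. Bst2 and Rsad2, both printed with a core, thus stood near opposite ends of the list, and Oasl1, printed without a core, at its lowest end.

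The order of the genes also differed between the cell types. Per kilobase of merged exon length, the level of Ifitm3 was highest of the 37 in both, at 508 CPM per kilobase in cardiomyocytes and 1021 in fibroblasts (means of 6 mice). In cardiomyocytes Ifi27l2a (373 CPM per kilobase), Bst2 (140.5) and Isg15 (27.2) came next. In fibroblasts Oasl1 (625 CPM per kilobase), Rsad2 (393) and Ifi27l2a (391) came next, and Oasl1 ranked only 25 in cardiomyocytes, at 4.38 CPM per kilobase. The fibroblast means of Rsad2 and Ifi27l2a, neighbours in that order, differed by less than the spread over mice, in which the highest mouse held 2.40 and 2.44 times the level of the lowest.

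Of the 37 genes, 5 neighbouring pairs overlap or lie at most 12751 bases apart on a chromosome. Their CPM ratios, not adjusted for length, are given for each of these pairs, and neighbours farther apart were left out. For 3 pairs the ratio did not overlap between the cell types. Ratios of other gene pairs were not taken, so this count has no share over all genes beside it and describes these pairs only. Oasl1 and Oasl2 lie 11005 bases apart on chromosome 5, and the ratio of Oasl1 to Oasl2 was 0.265 to 2.51 in cardiomyocyte columns and 19.0 to 29.6 in fibroblast columns. Rsad2 and Cmpk2 lie 12751 bases apart on chromosome 12 on opposite strands, with a ratio of 0.716 to 1.44 in cardiomyocytes and 4.03 to 5.66 in fibroblasts. The ratio of Parp9 to Dtx3l, whose counts may not be separate, was 0.903 to 2.40 in cardiomyocytes and 0.720 to 0.814 in fibroblasts. For the other 2 pairs the cell types overlapped. The ratio of Ifit2 to Ifit3, 7111 bases apart on chromosome 19, was 0.603 to 0.989 in cardiomyocytes and 0.806 to 1.13 in fibroblasts. The ratio of Oas3 to Oas2, 3244 bases apart on chromosome 5, was 0 to 0.386 in cardiomyocytes and 0.293 to 0.548 in fibroblasts.

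Upstream of these genes, interferon beta itself was counted almost only in fibroblasts. Ifnb1 had 1, 1 and 0 counts in Tg+ cardiomyocytes and 1, 1 and 0 in Bag3-WT cardiomyocytes, against 699, 597 and 2515 in Tg+ fibroblasts and 1474, 426 and 789 in Bag3-WT fibroblasts. The summed counts were 4 in cardiomyocytes and 6500 in fibroblasts, and per nuclear count the fibroblast over cardiomyocyte ratio was 438 (95% interval 171 to 1608, counting error only). Ifnb1 passed the count filter only through its fibroblast counts, so no fitted fold change is given. Of 21 listed interferon genes 13 were in the table, and only Ifnb1 and Ifng passed the count filter. Ifng, made mainly by lymphocytes, had 0, 2 and 0 counts in Tg+ and 0 in each of the Bag3-WT cardiomyocyte columns, against 22, 0 and 21 in Tg+ and 31, 7 and 0 in Bag3-WT fibroblasts, and was not called (adjusted p = 0.121). Among fibroblasts, Ifnb1 was highest in Tg mouse 3, at 226 CPM against 32.7 to 112 CPM in the other 5 mice.

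Of the 9 receptor and kinase genes reported here 6 were lower in cardiomyocytes, against 24.4% of all genes. Jak2 had 42.9, 60.4 and 90.8 CPM in Tg+ and 36.3, 52.3 and 67.9 CPM in Bag3-WT cardiomyocytes, against 271, 385 and 460.4 CPM in Tg+ and 295, 330.4 and 333 CPM in Bag3-WT fibroblasts. The kinase gene Jak2, used by the interferon gamma receptor, was 6.08-fold lower (log2 fold change −2.60, SE 0.19, edgeR adjusted p = 2.11e-06). Ifnar1 was at −1.81 (SE 0.20), Jak1 at −1.27 (SE 0.19) and Ifnar2 at −1.19 (SE 0.18), all called. The kinase gene Tyk2 (−0.45, SE 0.27), Ifngr1 (0.12, SE 0.20) and Ifnlr1 (1.30, SE 0.59) were not called.

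**Figure D3:**
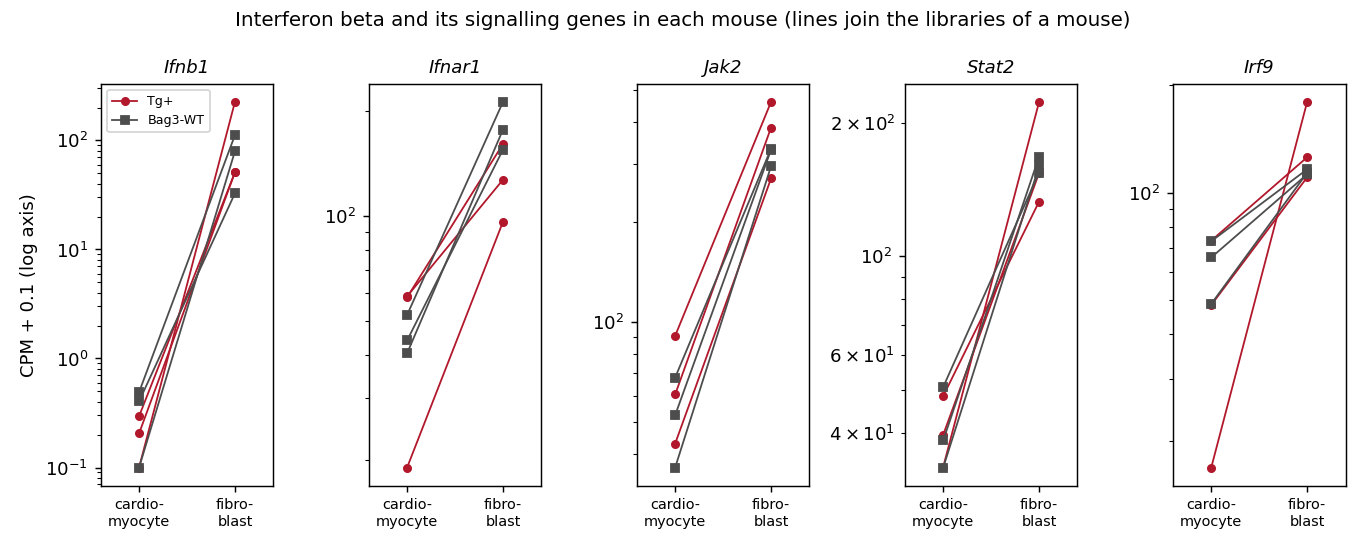
Level of interferon beta (Ifnb1), of its signalling genes Ifnar1, Stat2 and Irf9, and of Jak2, a kinase gene used by the interferon gamma receptor. Values are CPM + 0.1 on log axes that differ between panels, with cardiomyocytes left of fibroblasts. Each line joins the columns of 1 mouse, red circles for Tg+ and grey squares for Bag3-WT. Ifnb1 lies at or below 0.391 CPM in every cardiomyocyte column and at 32.7 CPM or above in every fibroblast column, and the lines of Jak2 and Stat2 lie lower in cardiomyocytes in all 6 mice.

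Other parts of the pathway were mostly lower in cardiomyocytes too, beside 24.4% lower and 19.3% higher among all genes tested. Of the 18 genes that induce interferon 14 were lower and none higher, with a median of −2.31, led in p by Irf5 (−2.76, SE 0.19), Irf8 (−2.52, SE 0.19), the kinase gene Ikbke (−4.07, SE 0.35) and the adaptor gene Traf3 (−2.36, SE 0.20). Among 12 genes listed as negative regulators 9 were lower, with a median of −1.43. They were led by Tnfaip3 (−4.94, SE 0.24), which encodes the NF-kappaB brake A20, then Socs1 (−2.62, SE 0.20), Socs3 (−3.18, SE 0.27) and Nlrc5 (−2.86, SE 0.26). That list also holds Isg20, better known as an antiviral effector, and Nlrc5 has other roles too. The count is thus not of negative regulators alone. Genes that lean towards interferon gamma were lower in 16 of 20, with a median of −1.38, led by Iigp1 (−2.45, SE 0.30), the peptide transporter gene Tap1 (−2.05, SE 0.25), Gbp6 (−1.81, SE 0.22) and Irgm1 (−2.31, SE 0.29). Of 31 tested further interferon-stimulated genes 25 were lower, with a median of −1.37, led by Helz2 (−3.06, SE 0.22), Slfn2 (−2.99, SE 0.23), the DNA exonuclease gene Trex1 (−3.71, SE 0.30) and Slfn8 (−3.06, SE 0.25). No gene of these 4 lists was called higher.

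Macrophage markers were lower in cardiomyocytes too, and their levels by mouse are given beside those of the interferon-stimulated genes. Of 14 macrophage and myeloid markers 13 were lower in cardiomyocytes, against 24.4% of all genes, with a median of −2.19, close to that of the 37 genes. Their summed level was 2946, 3927 and 1184 CPM in Tg+ cardiomyocytes and 2649, 4232 and 3783 CPM in Bag3-WT cardiomyocytes, against 10780, 14410 and 5846 CPM in Tg+ fibroblasts and 19900, 15970 and 16770 CPM in Bag3-WT fibroblasts. No marker of the list was at 0 in any column. The 37 genes summed to 1768, 1550 and 993 CPM in Tg+ cardiomyocytes and 1410, 2581 and 1742 CPM in Bag3-WT cardiomyocytes, against 8339, 10750 and 11640 CPM in Tg+ fibroblasts and 13810, 9290 and 10530 CPM in Bag3-WT fibroblasts. Immediate early genes were lower in cardiomyocytes in 7 of 8 (median −1.69) and erythroid genes in 5 of 5 (median −1.62). Endothelial markers were lower in 2 of 8 and higher in none (median −0.03), and all 6 markers of pericytes and smooth muscle ran the other way (called higher, median 2.65). Of 4 tested plasmacytoid dendritic cell markers 2 were lower (Irf8 and Bst2, itself one of the 37), while Siglech (−2.17, edgeR adjusted p = 0.051) and Tcf4 (0.19, edgeR adjusted p = 0.391) did not pass. The part of other cells in the difference was not tested.

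By genotype, no interferon-stimulated gene passed in cardiomyocytes. Of 35 tested genes (Mx1 and Mx2 fell under the count filter) 0 were called by edgeR's quasi-likelihood test, as were 0% of all 12114 genes. Unadjusted p was under 0.05 for 2 of the 35 (Ifi27l2a and Irf7), against 0.718% of all genes. The fold changes, fitted within cardiomyocytes, had a median of −0.40, against 0.01 over all genes, and 32 of 35 were negative, against 48.6% of all genes. For 5 genes (Usp18, Zbp1, Oas3, Oasl2 and Ifi27l2a, 14.3%) all 3 Tg+ columns lay below all 3 Bag3-WT columns, against 2.48% of all genes. For Xaf1 they lay above, against 2.5% of all genes.

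The lowest p in cardiomyocytes belonged to Ifi27l2a, a small interferon-induced protein gene. Ifi27l2a had 109.8, 114 and 95.5 CPM in Tg+ cardiomyocytes, against 139.9, 336 and 241 CPM in Bag3-WT cardiomyocytes. Its highest Tg+ value was below its lowest Bag3-WT value (log2 fold change −1.20, SE 0.38, unadjusted p = 0.0133, edgeR adjusted p = 1.00). Irf7 had 38.8, 39.03 and 34.3 CPM in Tg+ cardiomyocytes, against 35, 99.2 and 76.4 CPM in Bag3-WT cardiomyocytes. For Irf7 the lowest Bag3-WT mouse lay within the Tg+ range (log2 fold change −0.94, SE 0.40, edgeR adjusted p = 1.00). Isg15 had 17.1, 18.9 and 7.26 CPM in Tg+ cardiomyocytes, against 12.9, 34.95 and 32.3 CPM in Bag3-WT cardiomyocytes. Usp18 had 15.7, 9.57 and 8.82 CPM in Tg+ cardiomyocytes, against 19.1, 17.3 and 18.4 CPM in Bag3-WT cardiomyocytes. Ifit2 had 33.2, 24.4 and 15.98 CPM in Tg+ cardiomyocytes, against 19.9, 62.9 and 46.4 CPM in Bag3-WT cardiomyocytes. Isg15 (−0.90, SE 0.51) and Ifit2 (−0.83, SE 0.48) overlapped between genotypes and Usp18 (−0.70, SE 0.40) did not, and all 3 had an edgeR adjusted p = 1.00.

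The size of this cardiomyocyte median varied with single mice. WT mouse 2 had the highest value of the 6 for 26 of the 35 genes (74.3%), against 14.2% of all genes tested. Tg mouse 3 had the lowest for 26 of the 35, against 34.7% of all genes. Without WT mouse 2 the median was −0.11 and 22 genes were negative, and without Tg mouse 3 it was −0.30 with 29 of 36 tested genes negative. Without WT mouse 1 it was −0.62 with 33 of 36 negative, and without Tg mouse 1 it was −0.58 with 34 of 35 negative. With the letter of the animal code as a covariate the median was −0.26. The letter was F, M and F in Tg mice 1, 2 and 3 and F, M and M in WT mice 1, 2 and 3. It was thus not balanced between genotypes, and Tg mouse 3 is the mouse whose Y-linked counts differ between its columns. All 14 macrophage markers were also negative in Tg+ cardiomyocytes, with a median of −0.43, as were all 10 cardiomyocyte markers, with a median of −0.62. None of the 8 endothelial markers was negative (median 0.29), and 0 genes of these 3 lists were called. Their part in the pattern was not tested.

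In fibroblasts no gene of the set passed by genotype either. Of 36 tested genes (Mx2 was filtered out) 0 were called, as were 0% of all 13858 genes, and 0 had an unadjusted p under 0.05, against 5.04% of all genes. The median was −0.05, with 21 genes negative and 15 positive. No gene separated the genotypes, against 9.02% of all genes below and 4.06% above. Irf7 had 72.6, 119 and 106 CPM in Tg+ fibroblasts, against 108, 221 and 147 CPM in Bag3-WT fibroblasts. Irf1 had 752, 516 and 622 CPM in Tg+ fibroblasts, against 539.6, 509 and 427 CPM in Bag3-WT fibroblasts. Oas3 had 40.6, 55.4 and 49.99 CPM in Tg+ fibroblasts, against 91.6, 45.2 and 73.7 CPM in Bag3-WT fibroblasts. These were the genes with the lowest p, Irf7 at −0.62 (SE 0.31), Irf1 at 0.43 (SE 0.22) and Oas3 at −0.46 (SE 0.26), each with an edgeR adjusted p = 0.782 and with overlap between genotypes. Zbp1 had 18.95, 35 and 44 CPM in Tg+ fibroblasts, against 54.7, 43.95 and 46.3 CPM in Bag3-WT fibroblasts. Irf9 had 126, 110.3 and 179.7 CPM in Tg+ fibroblasts, against 114, 116 and 112 CPM in Bag3-WT fibroblasts. Zbp1 (−0.50, SE 0.29) and Irf9 (0.35, SE 0.22) had the same adjusted p, and the Irf9 value was highest in Tg mouse 3. All 14 macrophage markers were negative in Tg+ fibroblasts too, with a median of −0.72 and 0 called, beside the −0.05 of the interferon-stimulated genes. The sign of the median of the interferon-stimulated genes turned with single mice. It was −0.20 with 33 genes negative without Tg mouse 3, 0.13 with 12 negative without Tg mouse 1, and 0.03 without WT mouse 1.

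**Figure D4:**
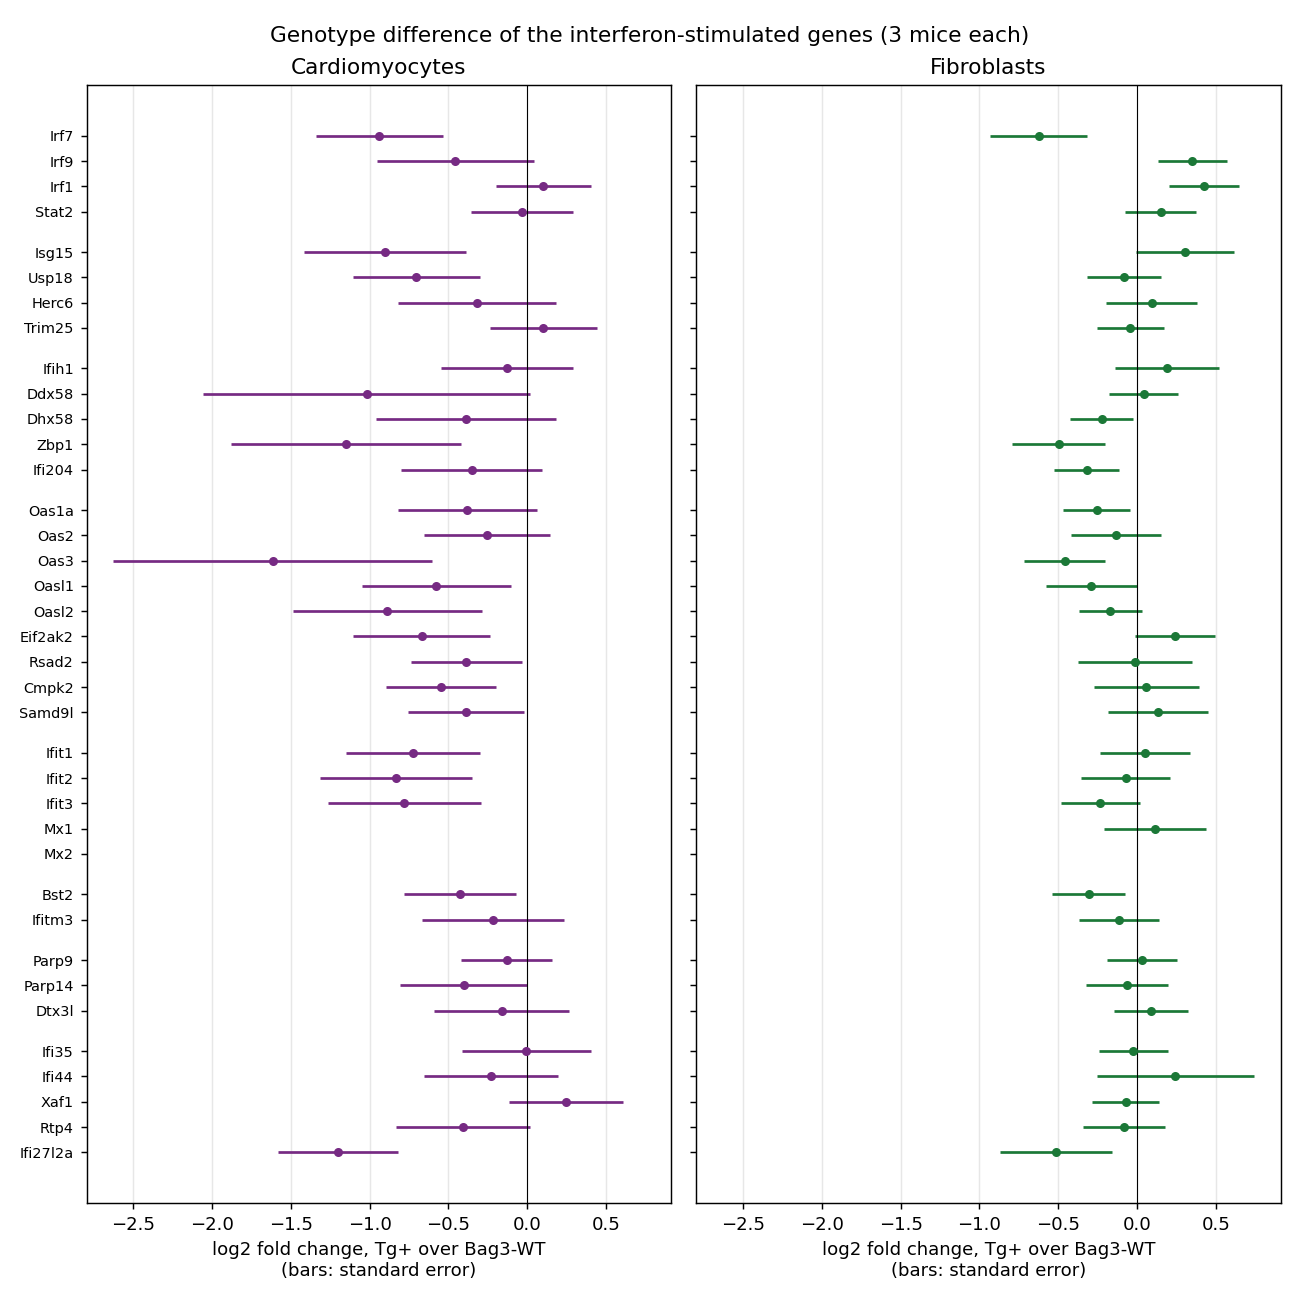
Genotype difference of the interferon-stimulated genes in cardiomyocytes (left) and fibroblasts (right), as the log2 fold change of Tg+ over Bag3-WT with bars for the standard error, from separate fits of 3 against 3 mice. Most cardiomyocyte points lie left of 0, with a median of −0.40, and the fibroblast points lie around 0, with a median of −0.05. No point was called, and genes with no point fell under the count filter.

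The difference of the genotype effects between the cell types was tested as an interaction, with 0 of 37 genes called, 0% of all 14223 genes called and 0 of the 37 at an unadjusted p under 0.05, against 0.97% of all genes. The median interaction was −0.24, against 0.05 over all genes. The lowest p values belonged to Eif2ak2 (−0.83, SE 0.58), Isg15 (−0.99, SE 0.71), Irf9 (−0.83, SE 0.63), Oas3 (−1.20, SE 0.93) and Oasl2 (−0.87, SE 0.68), each with an edgeR adjusted p = 1.00. Eif2ak2 had 25.1, 17.03 and 8.60 CPM in Tg+ and 22.3, 27.2 and 30.8 CPM in Bag3-WT cardiomyocytes, against 54.3, 48.9 and 89.98 CPM in Tg+ and 64.2, 53.96 and 53.7 CPM in Bag3-WT fibroblasts. Oasl2 had 24.7, 22.4 and 3.71 CPM in Tg+ and 28.05, 33.9 and 31.4 CPM in Bag3-WT cardiomyocytes, against 49.9, 70.2 and 62.8 CPM in Tg+ and 86.02, 55.97 and 73.4 CPM in Bag3-WT fibroblasts. For both genes Tg mouse 3 gave the lowest cardiomyocyte value, and the fibroblast values of the genotypes overlapped. Irf9 had 73.2, 48.2 and 16.8 CPM in Tg+ cardiomyocytes, against 48.6, 72.9 and 65.6 CPM in Bag3-WT cardiomyocytes. Oas3 had 4.84, 2.54 and 0 CPM in Tg+ cardiomyocytes, against 6.64, 11.2 and 5.59 CPM in Bag3-WT cardiomyocytes. Tg mouse 3 was again lowest for each. The median was 0.04 without Tg mouse 3, 0.10 without WT mouse 2 and −0.61 without Tg mouse 1. Within genotypes, the median cell type difference of the 37 genes was −2.46 in Tg+ and −2.002 in Bag3-WT mice.

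The columns labelled Tg mouse 3, whose Y-linked counts differ as given above, were low for these genes in cardiomyocytes and high in fibroblasts. Their median deviation from the mean of the 6 mice was −0.64 log2 units in cardiomyocytes and 0.25 in fibroblasts. Its macrophage markers deviated by −1.48 and −1.22. The summed level of the 37 genes over that of the macrophage markers was thus 1.99 in the fibroblasts of Tg mouse 3, against 0.582 to 0.774 in those of the other 5 mice. In cardiomyocytes this ratio was 0.838 in Tg mouse 3 and 0.395 to 0.610 in the others. In the fibroblasts of WT mouse 1 both sets were high, with deviations of 0.31 and 0.62, and in those of Tg mouse 1 both were low, at −0.43 and −0.17.

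**Figure D5:**
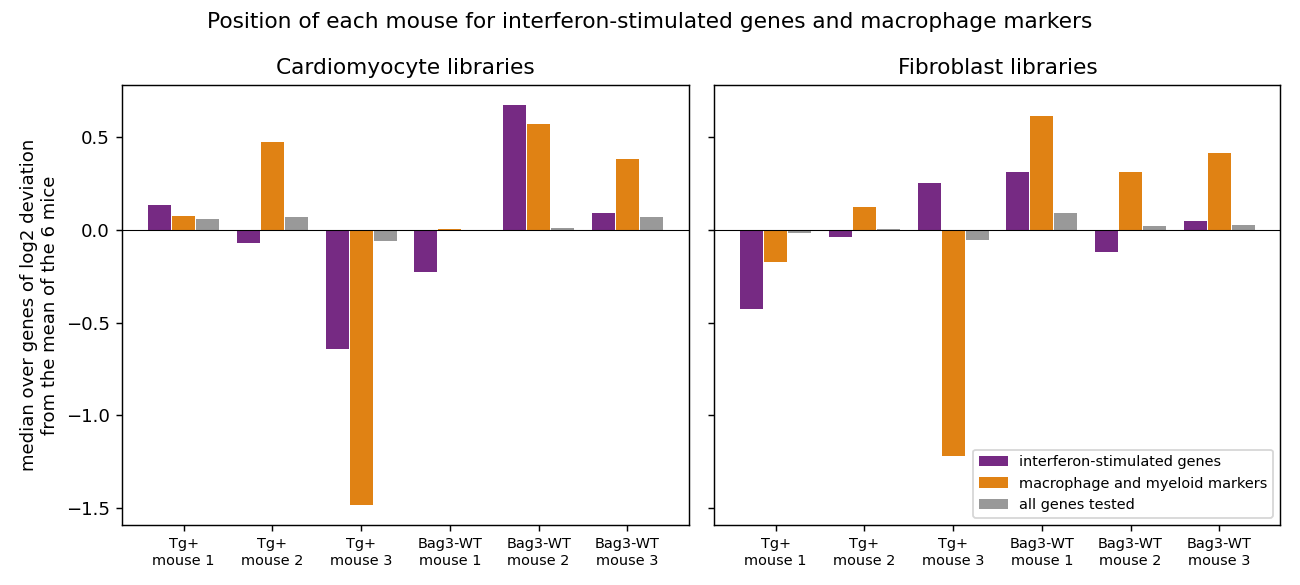
Position of each mouse, as the median over genes of the log2 deviation from the mean of the 6 mice, for the interferon-stimulated genes, the macrophage and myeloid markers and all genes tested, in cardiomyocyte (left) and fibroblast (right) columns. In fibroblasts of Tg mouse 3 the bars of the 2 sets point in opposite directions (0.25 and −1.22), while in its cardiomyocytes both point down (−0.64 and −1.48). WT mouse 2 has the highest cardiomyocyte bar of the interferon-stimulated genes, 0.68.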

How the data were processed

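RNA was measured by sequencing of poly(A)-captured libraries, per the labels' protocols. The authors deposited expected counts (estimated counts per gene, of which 44.7% were not whole) and a table of normalized values, here called a signal because the sources used here do not give its scaling. Build GRCm38.p6 and the tools R 3.4.4, kallisto 0.44.0 and DESeq2 1.18.1 are listed without role or order, per the submitters' processing notes. The sources used here state neither the annotation nor the use of strand in counting. The expected counts were the basis of the main tests, and the deposited signal of 1 alternative.

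Repeats of a mouse were summed and rounded, and the 13 mitochondrial genes removed, since they took very unequal shares. The protocols state a second round of sequencing for cardiomyocytes but not whether it gave the repeats. Within a mouse the repeats differed by a median of 0.13 to 0.491 log2 units over the 37 genes. Tests used edgeR 4.0.16 in R 4.3.3 (filterByExpr, TMM, robust glmQLFit, glmQLFTest, two-sided, Benjamini-Hochberg over all genes tested, threshold 0.05), with 14223 genes by cell type and in the interaction, 12114 by genotype in cardiomyocytes and 13858 in fibroblasts. The mouse was the block by cell type, since the labels give both cell types of a mouse the same animal code, and the mouse is the replicate. Deviations of the cell types of a mouse from their group means correlated at a mean of 0.119 (lowest −0.0017 in WT mouse 2, highest 0.192 in Tg mouse 3). The SE of a fold change was its size over the square root of F. Scripts were tested on simulated data. Levels between genes were compared per kilobase of merged exons from GENCODE M21 (GRCm38). DESeq2 1.42.0 and limma 3.58.1 were alternatives. Columns without a sample numbered 0.

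The 37 genes, the pathway and marker lists and the tests were chosen with earlier results of these data known. Values by mouse were given for the 2 genes with the lowest p in each role group, genes against the main direction, and the 5 with the lowest p by genotype and in the interaction. Each pathway list is represented by up to 4 genes of lowest p, with the uncalled receptor and kinase genes added, and the others by fold change alone. One gene of the receptor and kinase list is not reported here.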

Additional observations from a re-analysis of the deposited data

How the results depend on the processing

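Over 16 alternatives the count of genes called by cell type, 35 as reported, was 29 to 35, and 32 to 35 with each mouse left out in turn. The 29 came from scaling by nuclear library size alone. With the mitochondrial genes kept in TMM, 34 were lower and none higher. With no replicate block (the mouse term left out) the count was 35. The genotype counts stayed at 0 in cardiomyocytes (17 alternatives), in fibroblasts (14) and in the interaction (16), where over all genes DESeq2 called 3, 6 and 1 and limma voom 0 in each. The replicate block on the repeat number in cardiomyocytes gave 0 calls and a median of −0.38, and the interaction with no replicate block 0. Deviations of same-numbered repeats across genotypes had a mean correlation of 0.0166 (−0.413 to 0.380), so the number pairs no mice. Of 287 values by cell type for the genes given by mouse, 280 kept direction and side of the threshold, 6 lost the call and 1 turned: Ifi44 ran from −0.0705 without Tg mouse 2 to 0.461 without Tg mouse 3. The 85 values in cardiomyocytes, 70 in fibroblasts and 80 of the interaction kept theirs. Depth limits the low genes in cardiomyocytes, Mx1, Mx2 and Ifnb1.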
